A study of Mus musculus with 7 samples.

Results

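The repeat loci described here are the SINE, LINE and LTR copies, retrotransposon remnants, that start between positions 25600000 and 26000000 of mouse chromosome 8 (mm10), a window of 400 kb around Star and Ash2l. There were 799 of them among 3494995 loci in the whole table. The window was chosen by the repeat counts themselves, because loci in it were higher in Glis3 mutant than in wild-type testes, so the mutant and wild-type differences of its loci and genes are given as a description. Calls at these loci and genes come from fits over the whole tables and are counted, with no p-value given for any of them and nothing supported by them. Whole testes of C57BL/6 embryos at E14.5 were profiled by RNA-Seq of rRNA-depleted total RNA, with 1 pair of testes per library, to ask how gene and retrotransposon expression differ without functional GLIS3. The 3 wild-type libraries came from embryos with no Glis3 lesion named in the labels. The 4 Glis3 mutant libraries came from Glis3zf5/zf5 homozygotes, in which a global deletion in exon 4 and parts of the neighbouring introns removes DNA binding by GLIS3, a Krüppel-like zinc finger transcription factor, in all cells and not in germ cells alone.

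Star encodes the protein that carries cholesterol to the inner mitochondrial membrane, the first and limiting step of steroid synthesis, and in the fetal testis it is a product of the Leydig cells, the somatic cells that make androgen. Ash2l encodes a core subunit of the complexes that methylate lysine 4 of histone H3. SINEs are short retrotransposon copies that are often carried in introns and 3′ UTRs, where reads from the host transcript are counted on them. A read on a repeat locus can thus come from a transcript of the repeat or from the gene around it, and these counts do not tell the one from the other. Star lies on the plus strand and Ash2l on the minus strand, their annotated 3′ ends are 13 bases apart, and the libraries did not mark strand.

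Each library held between 3454317 and 4670830 reads on repeat loci, of which a single locus took between 0.964 and 7.02%. Levels are given as CPM, the reads of a locus per 1000000 reads after scaling with the TMM factors of edgeR over the loci tested, and 1 read was worth between 0.214 and 0.317 CPM. The targeted gene itself, Glis3, was measured at 7.63, 6.89 and 2.91 FPKM in the wild-type libraries and at 3.87, 3.26, 2.90 and 2.66 FPKM in the mutants, in replicate order as in all such lists here. FPKM are the fragments of a gene per kb of its transcript and per 1000000 fragments. The library labelled wild-type replicate 3 therefore lay inside the mutant range. Some results, several counts of calls among them, are also given without it, and the others include it. Its summed level of 7 germ cell markers (577 FPKM) was also below that of mutant replicate 1 (617 FPKM), while the other wild-type libraries had 1329 and 971 FPKM and the other mutant libraries between 468 and 533 FPKM. The tissue label was checked against markers: all 6 fetal Leydig, 5 Sertoli and 7 germ cell markers averaged over 1 FPKM, whereas of 4 mesonephric markers only Emx2 did. The 3 adrenocortical markers summed to between 6.28 and 12.3 FPKM in wild-type and between 10.9 and 18.4 FPKM in mutant libraries.

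The reads of the window sat mostly on a few loci inside Star. Summed over all 799 loci, the window had 1466, 1948 and 1462 CPM in the wild-type and 2014.6, 1751, 2238 and 2036 CPM in the mutant libraries. The mutant mean was 2010 ± 200 CPM (SD, n = 4) against 1625 ± 279 CPM (SD, n = 3), a log2 ratio of 0.31, and mutant replicate 2 lay below wild-type replicate 2. The 8 loci in the Star 3′ UTR held 44.7, 55.5 and 44.8% of these reads in the wild-type libraries. In the mutant libraries they held 63.4, 57.5, 60.4 and 62.8%, each above every wild-type library. Without those 8 loci the other 791 had 811, 867 and 808 CPM in wild-type and 738, 745, 887 and 758 CPM in mutant libraries, a log2 ratio of -0.083 with overlapping groups. The difference of the window sum thus lay in the loci of 1 exon.

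**Figure D1:**
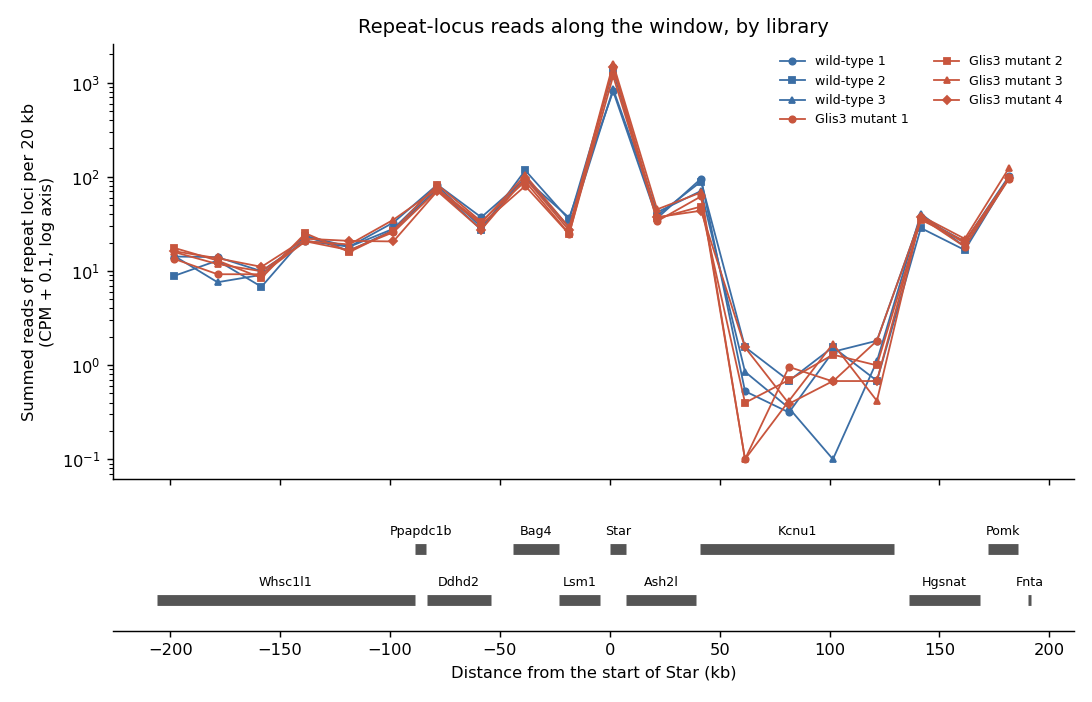
Summed reads of the repeat loci in 20 kb steps along the window (CPM + 0.1, log axis) against the distance from the start of Star in kb, 1 line per library, blue for wild-type and red for Glis3 mutant, with the genes drawn below. The step that holds Star stands above all others in every library, and the steps along Kcnu1 hold almost no reads. The step at the 5′ end of Ash2l is lower in each mutant than in each wild-type library. So, narrowly, is the step centred at -18.5 kb.

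Of the 799 loci, 592 had a read in any library and 340 passed the filter by averaging 1 read or more over the 7 libraries. Among those 340, 7 were called over the whole table (edgeR quasi-likelihood test, Benjamini-Hochberg adjusted p under 0.1), 6 higher and 1 lower in mutant testes. The same rule called 0.0846% of all 464695 loci tested, 0.0217% as higher and 0.0628% as lower. Since the window was chosen in this contrast, nothing is read from that difference. Every mutant library was above every wild-type library at 13 of the 340 loci (2.97% of all loci tested), and below at 9 (3.03% of all loci tested). The median log2 fold change was -0.065 for the 340 loci and 0.0029 for all loci tested, so the typical locus of the window was not higher.

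All 7 called loci touched an annotated exon, as did 30 of the 340 loci tested (8.82%), so that 23 exon loci were not called. Over the whole table, 3.32% of the loci tested and 23.2% of those called touched an exon. None of the 275 tested loci in introns and none of the 35 outside genes was called by edgeR, with 9 and 5 of them at an unadjusted p under 0.05 and 0 and 0 called by DESeq2. Of all 386244 loci tested in a gene but outside its exons, 116 (0.0300%) were called, and nothing is read from 0 among 275. Over the whole table, loci that lay wholly within a 3′ UTR had a median log2 fold change of 0.11 (12081 tested), and loci in a gene but outside its exons had -0.017. Summed over the window, the intron loci had 343, 315 and 330 CPM in wild-type and 297, 313, 347 and 324 CPM in mutant libraries, a log2 ratio of -0.041.

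All 6 loci called as higher were SINEs in the 3′ UTR of Star, between 25813574 and 25814893, a stretch of 1320 bases. The last exon of Star carries a 3′ UTR of 3099 bases (25812884 to 25815982), and its 8 SINE copies cover 31.9% of it. The most abundant repeat locus of the whole window was an RSINE1 at 25814743 to 25814893, inserted against the direction of Star. It had 189, 305 and 189 CPM in the wild-type and 372, 290, 385 and 350 CPM in the mutant libraries, with an edgeR log2 fold change of 0.62. The B1_Mur4 copy at 25814339 to 25814478 followed, with 148, 257 and 152 CPM in wild-type and 293, 224, 306 and 301 CPM in mutant libraries, a log2 fold change of 0.60. B1_Mur copies belong to the B1 family, which derives from the 7SL RNA of the signal recognition particle. At both loci wild-type replicate 2 lay above mutant replicate 2, so the groups overlapped.

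The neighbouring copies had the same overlap. The B1_Mur2 locus at 25813574 to 25813701 had 121, 218 and 120 CPM in wild-type and 231, 181, 265 and 239 CPM in mutant libraries, a log2 fold change of 0.59. The PB1D7 locus at 25813924 to 25814036, a relic of the monomers that preceded B1, had 86.0, 144 and 78.1 CPM in wild-type and 160, 132, 172 and 180 CPM in mutant libraries, a log2 fold change of 0.65. In both, wild-type replicate 2 again overlapped mutant replicate 2.

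At 2 of the 6 called loci the groups did not overlap. The B3 copy at 25813706 to 25813917, of the B2-related SINEs, had 32.3, 45.9 and 35.2 CPM in wild-type and 70.7, 51.8, 67.5 and 61.7 CPM in mutant libraries, a log2 fold change of 0.74. The plus-strand RSINE1 copy at 25814506 to 25814589 had 56.7, 84.6 and 59.9 CPM in wild-type and 119, 100, 123 and 113 CPM in mutant libraries, a log2 fold change of 0.77, the largest among the 6. In each of these loci wild-type replicate 2 was the highest wild-type library and mutant replicate 2 the lowest mutant library.

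Beyond these 6, the last 1.1 kb of the Star 3′ UTR carried 2 further SINE copies that were not called. The PB1D7 copy at 25815413 to 25815518 had 14.8, 16.0 and 13.7 CPM in wild-type and 18.2, 17.3, 20.9 and 19.9 CPM in mutant libraries, a log2 fold change of 0.36. The B1_Mm copy at 25815851 to 25815905 had 7.71, 9.88 and 6.24 CPM in wild-type and 13.1, 10.7, 12.4 and 12.4 CPM in mutant libraries, a log2 fold change of 0.62. Both had groups that did not overlap. Per kb of locus, read levels over all 7 libraries ranged from 1116 to 1968 CPM per kb at 5 of the called copies, with 246 CPM per kb at the B3 copy between them. They were 163 and 188 CPM per kb at these last copies. The counts per kb were therefore uneven among the copies, which does not measure the coverage along the 3′ UTR. The difference between the groups had the same sign at all 8 copies. As the copies lie in 1 exon, their shared sign does not count as 8 separate results.

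**Figure D2:**
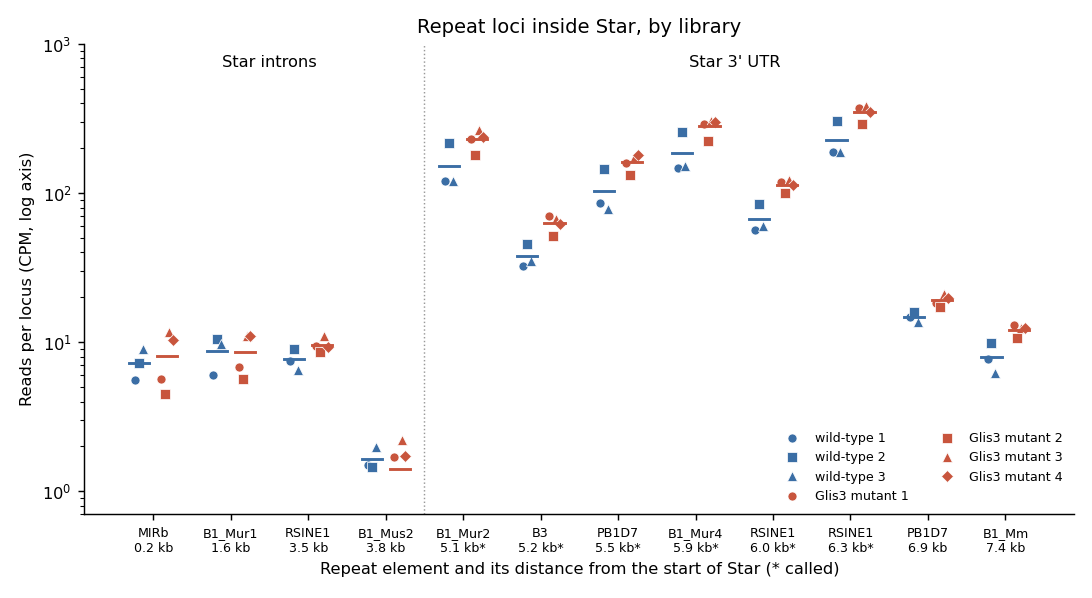
Reads per locus (CPM, log axis) at the 4 repeat copies in Star introns and the 8 in the Star 3′ UTR, in order along the gene, 1 point per library and a bar for each group mean; a star marks a called locus and a value of 0 (mutant replicate 2 at B1_Mus2) is not drawn. All 8 mutant means in the 3′ UTR lie above the wild-type means, with wild-type replicate 2 close to mutant replicate 2, while the intron copies overlap.

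The repeat copies in the introns of Star had few reads and overlapping groups. Its 4 intron copies (MIRb, B1_Mur1, RSINE1 and B1_Mus2) summed to 20.5, 28.2 and 27.2 CPM in wild-type and 23.7, 18.8, 36.1 and 32.3 CPM in mutant libraries. Their log2 ratio was 0.13, and their levels per kb lay between 10.3 and 60.0 CPM, all under the lowest of the 3′ UTR copies. Reads at the 8 copies in the 3′ UTR per read at the 4 intron copies were 31.9, 38.4 and 24.1 in wild-type and 54.0, 53.7, 37.4 and 39.6 in mutant libraries, a ratio that does not depend on the scaling of the libraries and in which mutant replicate 3 overlapped wild-type replicate 2.

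In Star itself, too, wild-type replicate 2 was the highest wild-type library and mutant replicate 2 the lowest mutant library, with overlap. Its FPKM, which counts reads over all its exons and thus shares reads with those copies, was 121, 162 and 119 in wild-type and 197, 157, 193 and 192 in mutant libraries. The log2 fold change on the log2(FPKM + 0.5) scale of limma was 0.47 ± 0.13 (SE). The summed reads of the 8 copies were 655, 1081 and 654 CPM in wild-type and 1277, 1007, 1351 and 1278 CPM in mutant libraries, a log2 ratio of 0.62. Per unit of Star FPKM the copies had 5.43, 6.66 and 5.52 CPM in wild-type and 6.49, 6.41, 7.002 and 6.64 CPM in mutant libraries. The mutant mean of this ratio was still the higher, and its groups overlapped, as those of the summed copies and of Star did.

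The sum of other Leydig cell markers moved with Star across the libraries. The other 5 fetal Leydig markers (Cyp11a1, Cyp17a1, Hsd3b1, Insl3 and Lhcgr) summed to 1482, 2505 and 1684 FPKM in wild-type and 2771, 2350.02, 2510.2 and 2890.3 FPKM in mutant libraries. In this sum, too, wild-type replicate 2 was high and mutant replicate 2 low. Wild-type replicate 2 was the highest wild-type library for each of the 5 markers. Mutant replicate 2 was the lowest mutant library only for Cyp17a1, the most abundant of them. Per 100 FPKM of these markers, Star had 8.14, 6.48 and 7.04 FPKM in wild-type and 7.10, 6.68, 7.69 and 6.66 FPKM in mutant libraries, and the groups overlapped. Per 100 FPKM of the same markers, the 8 copies in the Star 3′ UTR had 44.2, 43.2 and 38.9 CPM in wild-type and 46.1, 42.8, 53.8 and 44.2 CPM in mutant libraries, and here too the groups overlapped. In whole testes, a change in the number of cells of a type and in the RNA per cell cannot be told apart. The share of Leydig cell RNA in the difference at the Star copies was not tested.

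The call at the Star copies depended on single libraries more than its direction did. Without the library labelled wild-type replicate 3, none of the 6 copies was called as higher by edgeR, although 25 of the 340 loci then tested had an unadjusted p under 0.05, and the summed 8 copies had a log2 ratio of 0.50. Of the 6 rises, 1 was called without wild-type replicate 1 or without mutant replicate 1, and 2 without mutant replicate 4. The 6 log2 fold changes stayed above 0 in all 14 alternative settings of the test, from 0.43 to 0.94. The plus-strand RSINE1 was called in 12 of those settings and the B1_Mur2 copy in 4. DESeq2 called 2 of the 6.

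The only locus called as lower was an RLTR12C at 25847399 to 25847861, a long terminal repeat of an endogenous retrovirus on the minus strand, 31.4 kb downstream of the end of Star. It had 89.7, 82.8 and 66.9 CPM in the wild-type and 57.6, 45.5, 60.2 and 39.8 CPM in the mutant libraries, with an edgeR log2 fold change of -0.65, and the groups did not overlap. Of 5 annotated Ash2l transcripts, 1 begins inside this LTR, with a first, 5′ UTR exon of 116 bases (25847579 to 25847694) that covers 25.1% of the locus. The other annotated starts of Ash2l lie between 25840082 and 25840787, 6.91 kb or more into the gene. Ash2l as a whole had 81.7, 64.8 and 58.4 FPKM in wild-type and 55.9, 49.6, 53.9 and 45.0 FPKM in mutant libraries, a log2 fold change of -0.41 ± 0.12 (SE), also without overlap.

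Relative to the rest of Ash2l, the mutant mean of the LTR was lower, with overlapping groups. The LTR was named for its difference in this contrast, so nothing is read from these ratios. Its reads per read at the 63 Ash2l intron loci were 1.87, 1.58 and 1.21 in wild-type and 1.26, 0.981, 0.909 and 0.784 in mutant libraries, where the library labelled wild-type replicate 3 overlapped mutant replicate 1. Per unit of Ash2l FPKM it had 1.10, 1.28 and 1.15 CPM in wild-type and 1.03, 0.919, 1.12 and 0.884 CPM in mutant libraries, where mutant replicate 3 overlapped wild-type replicate 1. The Ash2l FPKM can share reads with the LTR, as the gene extends to 25847694, inside it. The intron loci of Ash2l themselves summed to 47.9, 52.3 and 55.1 CPM in wild-type and 45.6, 46.4, 66.2 and 50.7 CPM in mutant libraries, a log2 ratio of 0.013. The 2 SINE copies in the Ash2l 3′ UTR, a B2_Mm1a and a B1_Mus2, had log2 fold changes of 0.052 and -0.13. Without the library labelled wild-type replicate 3 the LTR was still called, as the sole locus of the window. It was called in 4 of the 14 alternative settings, and its log2 fold change ranged from -0.78 to -0.55.

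**Figure D3:**
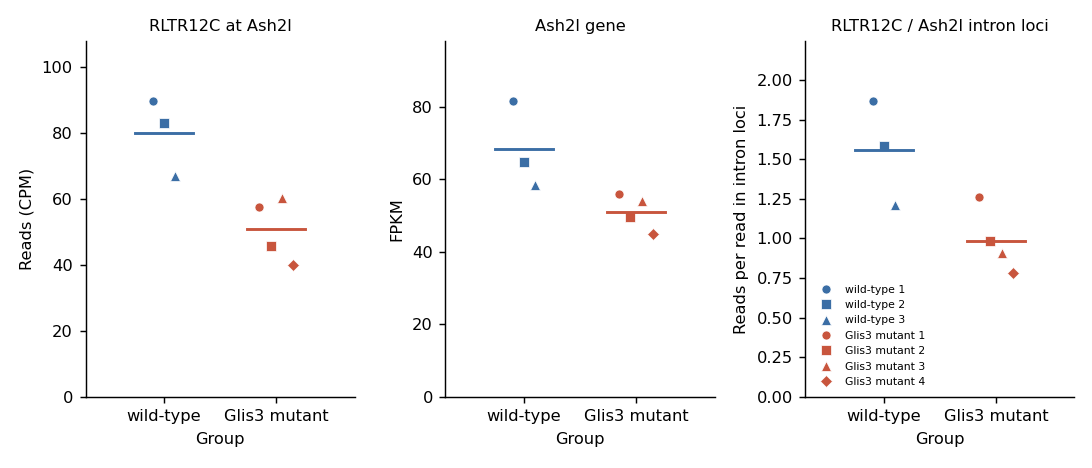
The RLTR12C locus at the 5′ end of Ash2l (CPM), the Ash2l gene (FPKM) and the reads of the LTR per read at the Ash2l intron loci, 1 point per library with a bar for each group mean and axes from 0. All 4 mutant libraries lie below all 3 wild-type libraries for the LTR and for the gene, and the library labelled wild-type replicate 3 is the lowest wild-type library in each panel.

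Germ cell marker RNA was highest and lowest in the same libraries as the LTR and Ash2l, with other libraries in a different order. The summed germ cell markers were 1329, 971 and 577 FPKM in wild-type and 617, 533, 528 and 468 FPKM in mutant libraries, so that wild-type replicate 1 was highest and mutant replicate 4 lowest for the markers, the LTR and Ash2l alike. The markers do not give the number of germ cells, and their part in the values at the LTR was not tested.

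The remaining genes of the window encode proteins of unrelated roles, and 10 of its 11 genes passed the filter of a mean of at least 0.5 FPKM. None of the 10 was called (limma, adjusted p under 0.05), against 0.00715% of all 13988 genes tested, and 3 were at an unadjusted p under 0.05, against 17.0% of all genes tested. Bag4, a co-chaperone of Hsp70, had 10.8, 10.7 and 9.38 FPKM in wild-type and 8.41, 8.57, 8.75 and 8.45 FPKM in mutant libraries. Lsm1, part of the ring that leads mRNA to decapping, had 16.8, 19.8 and 17.6 FPKM in wild-type and 16.4, 16.7, 16.4 and 15.9 FPKM in mutant libraries. For both, every mutant library was below every wild-type library, as was the case for 7.59% of all genes tested.

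Of the other genes, Hgsnat, a lysosomal acetyltransferase of heparan sulfate breakdown, had 23.0, 23.6 and 24.0 FPKM in wild-type and 24.3, 24.4, 25.3 and 25.3 FPKM in mutant libraries, a narrow difference with no overlap (7.31% of all genes tested in that direction). Ddhd2, a phospholipase, had 18.1, 13.7 and 11.8 FPKM in wild-type and 11.8, 12.2, 11.3 and 11.4 FPKM in mutant libraries, with a log2 fold change of -0.29 ± 0.13 (SE). Its 1 exon locus had 20.8, 15.7 and 18.7 CPM in wild-type and 11.4, 11.6, 16.2 and 9.51 CPM in mutant libraries. That was a log2 ratio of -0.60, with overlap and no call. The histone H3 lysine 36 methyltransferase gene Whsc1l1, the lipid phosphatase gene Ppapdc1b, the O-mannose kinase gene Pomk and Fnta, the alpha subunit of farnesyltransferase, had log2 fold changes of 0.039, 0.15, 0.079 and 0.10, each with overlapping groups. Kcnu1, a potassium channel gene of sperm, averaged 0.447 FPKM and was under the filter.

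Abundant repeat copies in the 3′ UTRs of these genes stayed near their host genes. A B1F1 copy at 25802278 to 25802367 in the 3′ UTR of Lsm1 had 117, 188 and 147 CPM in wild-type and 141, 131, 170 and 143 CPM in mutant libraries, a log2 fold change of -0.043. An RMER4B element at 25981758 to 25982255 in the 3′ UTR of Pomk had 45.8, 44.5 and 46.2 CPM in wild-type and 43.1, 43.2, 50.7 and 43.2 CPM in mutant libraries, a log2 fold change of -0.015. An L1MC4a fragment at 25764853 to 25765133 in the 3′ UTR of Bag4 had 31.5, 35.5 and 33.2 CPM in wild-type and 26.2, 26.8, 35.2 and 34.0 CPM in mutant libraries, a log2 fold change of -0.13. All 3 had overlapping groups. With the 6 called Star copies and the LTR they made up the 10 most abundant loci of the window. Across the 22 tested exon loci outside Star, the median log2 fold change was -0.021, with 9 above and 13 below 0.

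The intron loci differed little between groups in most genes. Those of Whsc1l1 (95 tested), Ddhd2 (47), Ash2l (39), Hgsnat (28), Lsm1 (25) and Bag4 (24) made up most of the tested intron loci, and the log2 ratios of their summed CPM were 0.041, -0.11, 0.013, 0.016, -0.39 and -0.20. Lsm1 was the exception, with 37.0, 37.5 and 29.9 CPM in wild-type and 27.1, 26.2, 28.5 and 24.5 CPM in mutant libraries and no overlap. Kcnu1 spans 140 loci of the window, of which only 1 passed the filter.

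**Figure D4:**
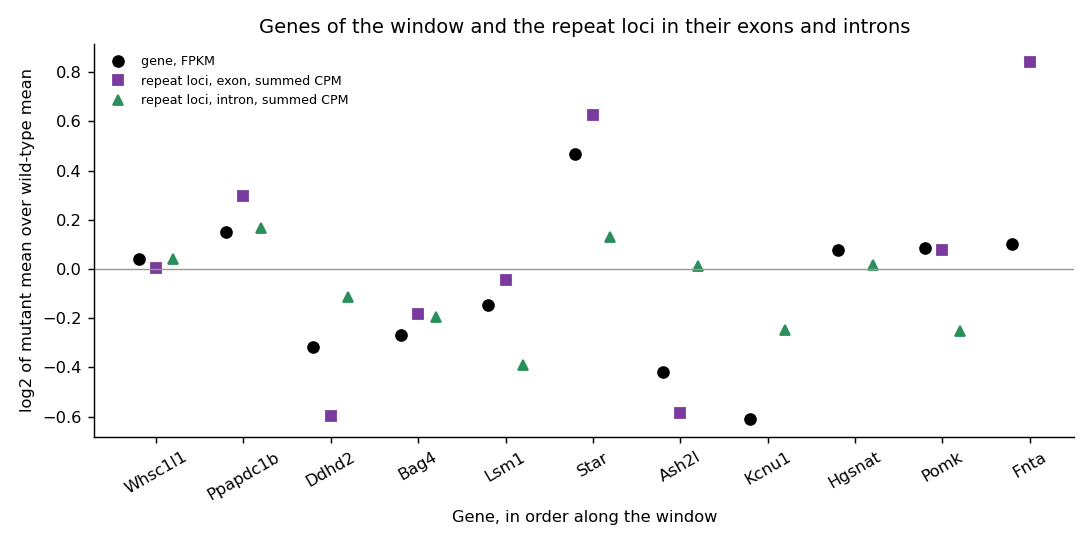
The log2 ratio of the mutant mean over the wild-type mean for each gene of the window in FPKM, for the summed CPM of the repeat loci in its exons, and for those in its introns, in order along the chromosome (for Star, the 4 copies in the introns of its annotated transcript). Star is the highest gene and Ash2l the lowest among those over the filter, their exon loci lie further out in the same direction, and their intron loci lie near 0. The exon point of Ddhd2, a single locus, also lies further out than its gene (-0.60 against -0.32), beside that of Ash2l (-0.59). The exon point of Fnta is a single locus of about 2 CPM.

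The edges of the window held no loci with many reads. The first locus inside it, a B1_Mus1 copy at 25600094, had 1 read in each of 2 libraries, and the nearest locus outside, a B1_Mur2 copy at 25599945, likewise. The last locus inside, a B1F copy at 25998800 in the 3′ UTR of Fnta, had 1.28, 1.45 and 1.497 CPM in wild-type and 2.57, 2.68, 2.85 and 2.02 CPM in mutant libraries, from 5 to 9 reads each, and was not called. The nearest outside, an ID_B1 copy at 26000148 in an intron of Fnta, had 7.71, 6.97 and 9.48 CPM in wild-type and 7.98, 11.6, 9.51 and 6.63 CPM in mutant libraries. In the 400 kb on either side, 0 of 73 loci tested upstream and 0 of 197 downstream were called by edgeR, against 0.0846% of all loci tested. Nothing is read from these counts, with 1 and 4 loci at an unadjusted p under 0.05 by edgeR and 0 and 0 called by DESeq2. The sums of both flanks overlapped between the groups, with log2 ratios of 0.079 and 0.038.

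By class, the window held 617 SINE, 66 LINE and 116 LTR loci, of which 269, 26 and 45 were tested. The 6 loci called as higher were SINEs and the 1 called as lower was an LTR. Of the 26 LINE loci, 0 were called by edgeR, with 1 at an unadjusted p under 0.05 and 0 called by DESeq2. As edgeR called 0.0846% of all loci tested, nothing is read from 0 among 26. LINE reads summed to 79.0, 84.0 and 79.3 CPM in wild-type and 62.7, 67.6, 85.9 and 82.5 CPM in mutant libraries.

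Copies of the same subfamilies elsewhere in the genome, which the choice of the window did not use, showed no difference between groups past the threshold. With 3 and 4 libraries, 1 subfamily alone could not have passed it after adjustment, so the sizes of the differences are given. The other 31849 copies of B1_Mur2 summed to 14053 ± 479 CPM (SD, n = 3) in wild-type and 14791 ± 459 CPM (SD, n = 4) in mutant testes, 5.25% more, with 3 of 4 mutant libraries above every wild-type library (exact permutation test, two-sided, p = 0.0857 and Benjamini-Hochberg adjusted p = 0.514 over 6 subfamilies). The other copies of B1_Mur4, B3, PB1D7 and RSINE1 differed by between -0.42 and 3.10% (exact p from 0.314 to 0.886). The other 318 copies of RLTR12C summed to 322, 327 and 307 CPM in wild-type and 307, 288, 380 and 324 CPM in mutant libraries, 1.83% more (exact p = 0.857). Of the 46 RLTR12C copies tested elsewhere, 0 were called by edgeR, against 0.0846% of all loci tested, with 0 at an unadjusted p under 0.05 and 0 called by DESeq2. No copy had groups apart, against 2.97% of all loci tested with every mutant library above and 3.03% with every one below.

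Repeat loci around other genes of steroid synthesis were compared as loci outside the window. Within 20 kb of 12 such genes lay 1243 loci, of which 365 were tested and 3 called by edgeR, 2 higher and 1 lower. The 3 were 0.822% of those tested, against 0.0846% of all loci tested. Of the 365, 259 had a log2 fold change above 0, with a median of 0.29 against 0.0029 for all loci tested. The called fall, an RMER19B near the luteinizing hormone receptor gene Lhcgr, rested on 9, 23 and 0 reads in wild-type and 5, 2, 0 and 0 reads in mutant libraries, a log2 fold change of -2.32 with an adjusted p of 0.0909 by edgeR, and its groups overlapped.

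Both loci called as higher lay within 20 kb of Hsd3b1 but in exons of its neighbour Hao2, which encodes a hydroxyacid oxidase and was named after its values were seen. An L1MA5 in the Hao2 3′ UTR (chr3, 98874942 to 98875189) had 137, 261 and 179 CPM in wild-type and 296, 357, 347 and 340 CPM in mutant libraries, a log2 fold change of 0.80 with an adjusted p of 0.00012 by edgeR. A MIRc that touches a coding exon of Hao2 (98877041 to 98877123) had 47.5, 79.6 and 52.6 CPM in wild-type and 102, 105, 85.9 and 98.3 CPM in mutant libraries, a log2 fold change of 0.71 with an adjusted p of 0.0156 by edgeR. At both loci all mutant libraries lay above all wild-type libraries. Hao2 itself had 25.0, 34.4 and 27.2 FPKM in wild-type and 43.7, 51.1, 41.6 and 46.5 FPKM in mutant libraries, a log2 fold change of 0.66 ± 0.12 (SE, limma adjusted p = 0.133), also without overlap.

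Summed per gene, the loci near all 12 genes had a higher mean in mutant than in wild-type testes. Those near Cyp11a1, the side-chain cleavage enzyme that makes pregnenolone, had 22.0, 31.1 and 20.5 CPM in wild-type and 41.6, 34.2, 42.8 and 46.4 CPM in mutant libraries, 68.2% more, and 94.6% of these reads lay inside the gene. Those near Hsd3b1, the dehydrogenase that yields progesterone and androstenedione, had 334, 588 and 408 CPM in wild-type and 634, 680, 692 and 714 CPM in mutant libraries, 53.5% more. For both, all 4 mutant libraries were above every wild-type library, and the two-sided exact permutation test on the difference of means gave 0.0286, the smallest p that 3 and 4 libraries allow, with an adjusted p of 0.171 over the 12 genes. The loci near Hsd3b6, at no more than 6.02 CPM, were also apart, with an exact p of 0.0571, since 1 other assignment of the libraries gave a larger difference. Only 15.5% of these reads lay inside Hsd3b6, and the reads inside it overlapped between the groups. Hsd3b6 itself averaged 0.742 FPKM in wild-type and 0.418 FPKM in mutant libraries, with overlap. Near Hsd3b1 the separation of the groups came with the 4 loci in Hao2, since the 47 others had 144, 243 and 170 CPM in wild-type and 232, 212, 253 and 269 CPM in mutant libraries, with overlap. The other 10 genes had differences of 16.0 to 177% and exact p from 0.0571 to 0.429. No sum passed the threshold after adjustment. With so few libraries 1 sum alone could not pass it even at the smallest exact p, so nothing is read from that.

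**Figure D5:**
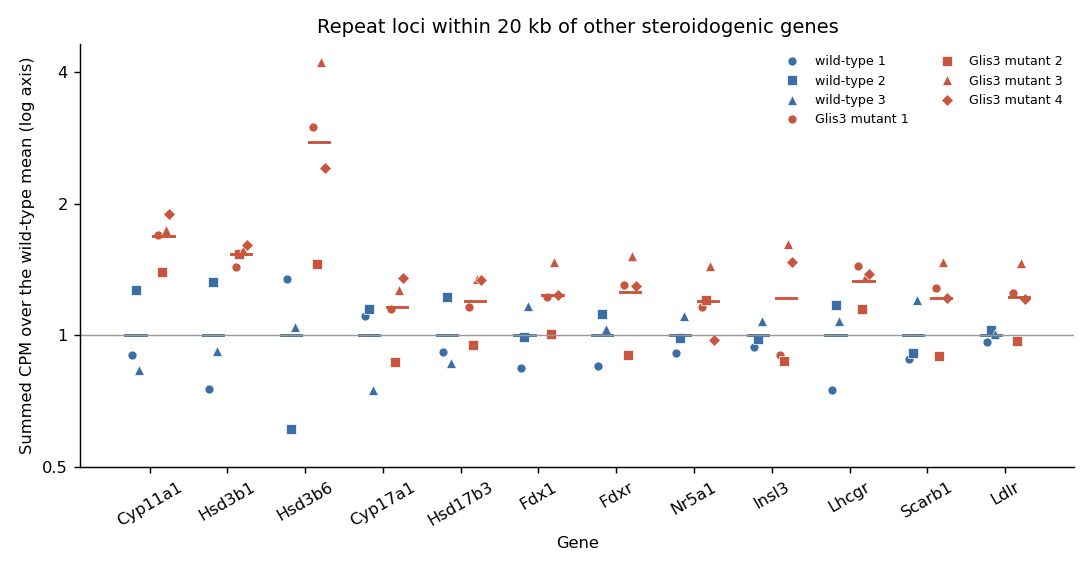
Summed CPM of the repeat loci within 20 kb of each of 12 other steroidogenic genes, divided by the wild-type mean (log axis), 1 point per library and a bar for each group mean. The mutant means lie above 1 for all 12 genes, and the libraries of the groups are apart for Cyp11a1, Hsd3b1 and Hsd3b6. The loci near Hsd3b6 have no more than 6.02 CPM in any library, mostly from reads outside the gene.

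The genes of steroid synthesis outside the window gave the setting of Star. All 26 listed genes were tested and 0 were called (limma, adjusted p under 0.05), against 0.00715% of all genes tested. By limma 15 had an unadjusted p under 0.05, all higher in mutant testes, against 8.21% of all genes tested in that direction and 8.79% in the other. Of the 26, 22 had a log2 fold change above 0, with a median of 0.31 against 0.0084 for all genes tested. The 3 adrenocortical markers, Cyp11b1, Mc2r and Cyp21a1, are themselves genes of the list, so their sum is not separate from it. That sum was 61.9% higher on average in mutant libraries, with 3 of 4 above every wild-type library. Most of it was Cyp11b1, with means of 6.31 FPKM in wild-type and 11.1 FPKM in mutant libraries. Each of the 3 genes overlapped between groups. Of the other cell types, the macrophage marker sum was 23.0% higher, also with 3 of 4 mutant libraries above every wild-type library. The Sertoli cell sum was 12.1% higher, the germ cell sum 44.1% lower and the mesonephric sum slightly lower, each with overlap between groups. The macrophage markers summed to between 19.6 and 22.7 FPKM in wild-type and between 21.8 and 29.9 FPKM in mutant libraries, all 4 of them over 1 FPKM on average. The part of these cell types in the values of the list was not tested. Insl3, the Leydig cell hormone of testis descent, had 190, 255 and 199 FPKM in wild-type and 389, 321, 305 and 335 FPKM in mutant libraries, a log2 fold change of 0.66 ± 0.12 (SE, limma adjusted p = 0.133). Cyp11a1 had 434, 708 and 463 FPKM in wild-type and 780, 735, 732 and 823 FPKM in mutant libraries, a log2 fold change of 0.55 ± 0.16 (SE, limma adjusted p = 0.186). At both genes all mutant libraries lay above all wild-type libraries.

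The remaining genes among the 10 most abundant of that list had log2 fold changes between 0.16 and 0.47. Cyp17a1, the 17-hydroxylase and lyase of androgen synthesis, had 679, 1203 and 774 FPKM in wild-type and 1266, 984, 1169 and 1362 FPKM in mutant libraries, a log2 fold change of 0.47 ± 0.20 (SE, limma adjusted p = 0.285), with overlap. The electron carriers of the mitochondrial P450 enzymes, Fdx1 and Fdxr, had log2 fold changes of 0.42 and 0.38, and the lipoprotein receptor gene Scarb1 had 0.38, all 3 without overlap between groups. Hsd3b1, Nr5a1, Tspo and Cyb5a had 0.42, 0.27, 0.24 and 0.16, with overlap. Without the library labelled wild-type replicate 3, 4 genes of the list were called as higher by limma, Fdx1, Fdxr and Nr5a1 among the 10 most abundant.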

How the data were processed

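RNA-Seq of whole E14.5 testes from 3 wild-type and 4 Glis3 mutant embryos was analysed, 1 pair of testes per library, grouped by the titles in the labels. The authors omitted poly-A selection, primed at random, mapped reads without strand to mm10 with TopHat 2.0.12 and made the deposited FPKM values per RefSeq gene with Cuffquant and Cuffnorm. The deposited counts per RepeatMasker element are uniquely mapped reads collected by the authors with HTSeq-count, whose strand setting is not given in the sources used here. Copies that are near-identical to others thus hold fewer reads. Both headers lack 1 tab between library names, so columns were read by number. All columns of sample values were used.

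Counts were tested over the whole table with edgeR 4.0.16 (quasi-likelihood, TMM, two-sided, mean of at least 1 read per library, Benjamini-Hochberg threshold 0.1), the filter and threshold of the study, whose tool, DESeq2 (here 1.42.0), was an alternative. FPKM were tested as log2(FPKM + 0.5) with limma 3.58.1 (trend, mean of at least 0.5 FPKM, threshold 0.05), in R 4.3.3, so that a fold change understates that of low genes. CPM use the TMM effective library size, and log2 ratios are of group mean CPM. Sums outside the window were compared by two-sided exact permutation over all 35 assignments of the 7 libraries. Loci were placed with bedtools 2.31.1 and GENCODE M21; coordinates are 1-based. Depth was 3454317 to 4670830 repeat reads per library. Libraries of a group differed by more than sampling noise (chi-square per degree of freedom from 1.29 to 3.54).

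Named were the genes of the window, the 10 most abundant steroidogenic genes, the 10 most abundant loci, the called loci whose groups did not overlap, and loci at each edge of the window. The other called loci and Hao2 were named after their values were seen. Members, lists and tests were chosen with earlier results of these data known; the sums of other copies, of the Star copies and of the window without them were added after seeing the data. Alternatives were other scalings, filters, pseudocounts and thresholds, DESeq2, a replicate block and leaving out each library.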

Additional observations from a re-analysis of the deposited data

Results flagged for a closer look

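Among 68 groups of 4 mutant libraries whose highest and lowest values were compared with the rest, 5 held a library apart from the others by Dixon's test at the 95% level, a rate of the order that chance gives (about 1 in 20). The Star gene had 157 FPKM in mutant replicate 2, against 197, 193 and 192 FPKM in the other mutant libraries. The B1_Mur4 copy in the Star 3′ UTR (25814339) had 224 CPM in the same library, against 293, 306 and 301 CPM. The reads of the loci in Star exons per read of the RLTR12C at the 5′ end of Ash2l numbered 32.1 in mutant replicate 4, against 22.2, 22.1 and 22.4 for the remaining mutant libraries. The RMER4B element in the Pomk 3′ UTR (25981758) had 50.7 CPM in mutant replicate 3 and 43.1, 43.2 and 43.2 CPM in the others. The B1_Mus1 copy at the edge of the window (25600094) had 0.285 CPM in mutant replicate 1, from 1 read, and 0 in the other 3 mutant libraries.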

How the results depend on the processing

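Of 706 values recomputed under other settings for 58 results, 14 changed sign, 3 newly passed the threshold, and 25 counts or sums moved by over 1.5 times or by more than the spread between replicates; the cause was not tested. Among all loci tested 393 were called, against 17 with a mean of at least 10 reads, 217 with the replicate number as a block, 15 by DESeq2, and 139 (without wild-type replicate 2) to 659 (without wild-type replicate 3) with 1 library left out. Of the window, 7 loci were called, against 4 at a threshold of 0.05, 2 with no filter, 0 with a mean of at least 10 reads (10 at an unadjusted p under 0.05 by edgeR), 1 with the block, 2 by DESeq2, and 1 (without wild-type replicate 1, wild-type replicate 3 or mutant replicate 1), 2 (without mutant replicate 4) or 6 without a library. The 3 calls near other steroidogenic genes became 0 with a mean of at least 10 reads (20 at an unadjusted p under 0.05 by edgeR) and 1 with the block. By limma 1 gene was called, 4 with no filter, 0 with the block (1726 at an unadjusted p under 0.05), 2 without wild-type replicate 1 or mutant replicate 3, 5 without wild-type replicate 2 and 722 without wild-type replicate 3. Of the steroidogenic genes 0 were called, 1 without wild-type replicate 2 and 4 without wild-type replicate 3. The same replicate numbers did not pair the libraries (correlations of deviations 0.034, -0.078 and 0.022), and the block is given only here. The window sum (log2 ratio 0.31) was -0.019 without exon loci and 0.24 without wild-type replicate 3. Without that library the log2 fold changes of Star and Ash2l were 0.39 and -0.51. Cyb5a ranged from -0.0034 to 0.25 without a library, the other copies of B1_Mur4 from -0.036 to 0.011 and of RLTR12C from -0.058 to 0.079. Scaled by library size alone, the other copies of B3, PB1D7, RLTR12C and RSINE1 had log2 ratios of -0.027, -0.0098, -0.035 and -0.022. Among loci and genes of the window near 0, Whsc1l1 was -0.040 without wild-type replicate 3, the B1F1 copy in Lsm1 0.12 without wild-type replicate 2, and the RMER4B element in Pomk 0.023 without mutant replicate 1 and 0.0013 with the block. Without wild-type replicate 3, limma also called Fdx1, Fdxr and Nr5a1. The levels of loci with few reads are coarse, since 1 read was worth up to 0.317 CPM.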
